A study of Mus musculus with 18 samples.

Results

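Integrins are cell-surface receptors made of an alpha and a beta subunit that bind the extracellular matrix, and focal adhesions are the protein plaques that tie their cytoplasmic tails to actin. The genes described here are 36 mouse genes of that machinery, of the 46078 counted by RNA-seq. They encode 12 alpha subunits, 7 beta subunits and 17 intracellular adhesion proteins. They were chosen by name from knowledge of the pathway, with earlier results of these data known. For accessibility, the 71 ATAC-seq peaks of 111664 that lay within 1000 bp of an annotated transcript start of 35 of these genes were used. Tln2 had no such peak.

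The libraries were made from small cell lung cancer (SCLC) cells of mice with floxed Rb1, Rbl1 and p53 alleles (TKO), named so in the labels, although the study's text also names Rbl2. Deletion was started at an age of 8 weeks with a Cre-expressing adenovirus given to the lung, and cells were taken 28 weeks later. The promoter that drove Cre is not given in the sources used here. The study's methods also name a tdTomato reporter in the mice of every genotype. The TKO group had no further allele named. A group called here the CARM1 knockout also carried floxed Carm1, which encodes an arginine methyltransferase. A group called the NFIB mutant carried NfibR388K, in which the arginine of the transcription factor NFIB that CARM1 methylates is a lysine. Each genotype had 3 animals and 3 libraries per assay. The study describes the material in different places as sorted tdTomato-positive cancer cells, tumor biopsies and cancer cell lines, so the admixture of other cells cannot be taken from the text.

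Matrix-binding alpha subunits are grouped by ligand: collagen, laminin, or the RGD peptide motif of fibronectin and vitronectin. Talins and kindlins switch integrins on from inside the cell. The complex of integrin-linked kinase, PINCH and parvin, and the scaffolds around focal adhesion kinase (FAK), carry the link on to actin and to signalling. SCLC cells are known for growth in loose clusters with neuroendocrine features, and adhesion genes are known to differ between neuroendocrine and non-neuroendocrine SCLC cells.

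The 250 bases upstream of the RefSeq start of 5 members (GRCm38.p6) are printed here for reference beside the accessibility result. Accessibility was counted over whole peaks, which are wider than these windows, and the part of these bases in it was not tested. The windows of Itga5, the fibronectin receptor alpha subunit (chr15:103366792-103367041, minus strand), Itgav, the alpha subunit of the vitronectin receptors (chr2:83724147-83724396, plus strand), and Itgb7, a beta subunit known from lymphocytes (chr15:102231936-102232185, minus strand), lay in peaks that were more accessible in both mutants. Those of Itgb1, the beta subunit shared by most matrix receptors (chr8:128685404-128685653, plus strand), and Vcl, which encodes the actin linker vinculin (chr14:20929148-20929397, plus strand), lay in peaks that were not called although the RNA rose. Capitals mark matches, on either strand, to the GC box GGGCGG, the TEAD motif GGAATG, or the CArG box.
Itga5: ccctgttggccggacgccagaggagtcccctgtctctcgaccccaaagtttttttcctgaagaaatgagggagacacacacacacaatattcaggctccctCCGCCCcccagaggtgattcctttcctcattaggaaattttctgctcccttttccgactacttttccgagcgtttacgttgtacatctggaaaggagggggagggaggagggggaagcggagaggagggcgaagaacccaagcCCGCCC
Itgav: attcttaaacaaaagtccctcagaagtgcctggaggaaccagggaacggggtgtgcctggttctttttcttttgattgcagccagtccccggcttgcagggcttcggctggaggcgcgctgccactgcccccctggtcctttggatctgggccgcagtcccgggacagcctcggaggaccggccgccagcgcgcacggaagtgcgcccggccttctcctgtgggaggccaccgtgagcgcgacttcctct
Itgb7: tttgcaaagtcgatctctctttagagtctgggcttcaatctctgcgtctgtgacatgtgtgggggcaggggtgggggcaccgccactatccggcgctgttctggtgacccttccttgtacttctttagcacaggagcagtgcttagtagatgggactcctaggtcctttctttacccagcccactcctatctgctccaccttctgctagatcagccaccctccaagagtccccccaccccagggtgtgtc
Itgb1: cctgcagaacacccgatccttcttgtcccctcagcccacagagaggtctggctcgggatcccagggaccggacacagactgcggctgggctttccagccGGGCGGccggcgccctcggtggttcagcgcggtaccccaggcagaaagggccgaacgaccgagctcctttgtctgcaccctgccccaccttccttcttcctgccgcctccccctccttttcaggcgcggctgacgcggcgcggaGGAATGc
Vcl: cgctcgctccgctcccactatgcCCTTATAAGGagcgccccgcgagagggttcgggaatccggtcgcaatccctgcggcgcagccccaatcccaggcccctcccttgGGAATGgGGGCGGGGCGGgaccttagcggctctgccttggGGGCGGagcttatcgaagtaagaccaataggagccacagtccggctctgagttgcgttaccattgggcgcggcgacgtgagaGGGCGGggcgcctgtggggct

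Those motifs were searched on both strands in 32851 such windows, 33 of them from 27 members. The GC box was in 18 member windows against 32.7% of all windows, and TEAD in 5 (Actn4, Flna, Itga10, Itgb1 and Vcl) against 12.6%. A CArG box was in the windows of Fermt2, Itgb6 and Vcl, against 1.47% of all. The AP-1 motif TGAGTCA was in that of Zyx, against 4.46%. The palindrome of NFI factors, TTGGC and GCCAA with 5 bases between them, was in 0 member windows and in 0.0365% of all. These matches describe letters and not binding.

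RNA-seq libraries held 15848866 to 20915057 counts on genes and ATAC-seq libraries 26917178 to 47653979 counts on peaks. RNA levels are given as CPM (counts per 1000000 counts) scaled by edgeR's TMM factors, and 3 counts, taken as the limit of detection, equal 0.143 to 0.189 CPM. Carm1 was at 97.7, 103 and 44.5 CPM in TKO, 63.4, 79.1 and 50.8 in the CARM1 knockout and 100.4, 104 and 102 in the NFIB mutant, groups that overlapped (adjusted p = 0.410, CARM1 knockout against TKO, by the quasi-likelihood test of edgeR, Benjamini-Hochberg). Counts per gene do not separate the exons removed by Cre, so they do not check the labels. Nfib, the other altered gene, had means of 524, 126 and 93.3 CPM in TKO, the CARM1 knockout and the NFIB mutant. All mutant libraries were below TKO (log2 fold changes -2.06 and -2.49, adjusted p = 0.00799 and 0.00325, same test). The part of this fall in the results was not tested.

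The makeup of the libraries differed along with genotype. The summed level of 12 neuroendocrine markers was 1854 to 4114 CPM in TKO, 59.3, 189 and 1892 in the CARM1 knockout and 33.6 to 51.5 in the NFIB mutant. The labelled cell type was met by its markers in TKO, and far less in CARM1 knockout libraries 1 and 2 and in the NFIB mutant. CARM1 knockout library 3 reached the TKO range of these markers but was mixed. It also had the highest fibroblast, smooth muscle, leukocyte and endothelial sums of all libraries (26894, 2015, 2379 and 74.0 CPM). The 8 fibroblast genes summed to 16.2 to 64.4, 14947 to 26894 and 10361 to 16241 CPM, and 8 smooth muscle and pericyte genes to 7.44 to 14.03, 522 to 2015 and 162 to 578 CPM. The 10 leukocyte genes summed to 4.03 to 51.8, 168 to 2379 and 27.8 to 442 CPM, with the lymphocyte genes Cd3e, Cd79a, Ms4a1 and Nkg7 under 1 CPM in every library. Lung epithelial markers (10 genes) were at 270 to 667 CPM in TKO, 6.37, 82.6 and 888 in the CARM1 knockout and 3525, 266 and 92.7 in the NFIB mutant. Only CARM1 knockout library 3 and NFIB mutant library 1 were above TKO, and all other mutant libraries were below it. Endothelial markers (8 genes) were at 5.86 to 21.3, 4.02 to 74.0 and 1.88 to 12.2 CPM, with Emcn, Cldn5 and Tie1 under 1 CPM everywhere, and 4 mesothelial markers at 0.399 to 14.7, 5.56 to 94.7 and 44.7 to 93.8 CPM. Reads that htseq-count assigned to no annotated feature were 9.995 to 12.2% in TKO and 3.65 to 5.17% in the mutants. The part of these shifts in the results was not tested. In bulk libraries, fewer cells of a type and less RNA per cell cannot be told apart.

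Most of the adhesion genes were higher in both mutants than in TKO. Calls came from 1 edgeR quasi-likelihood fit of all 9 libraries, with p adjusted over 15514 genes, and asked for an adjusted p below 0.1 with a log2 fold change of 0.8 or more in size. Of the 36 members 35 passed the filter on low counts, and Itgb6 did not. In the CARM1 knockout 23 of 35 were called higher (20.5% of all genes tested were) and 1 lower (18.3%). In the NFIB mutant 25 were called higher (22.3%) and 1 lower (23.5%). The same TKO libraries served both comparisons, and 22 members were called higher in both. The median log2 fold change of the members was 2.26 in the CARM1 knockout and 2.62 in the NFIB mutant, against -0.03 and -0.05 over all genes. For 21 of 35 members every mutant library was above every TKO library (22.3% of all genes), and for 0 every one was below (23.3%). Scaling by library totals moved the median of all genes by -0.27 and -0.33 and gave 21 higher and 1 lower, and 23 higher and 1 lower, with 39.4% and 35.8% of all calls higher in place of 52.9% and 48.7%. Without the pair of libraries highest in epithelial markers 23 and 24 members were called, and without the 3 libraries highest in Ptprc, a pan-leukocyte gene, 18 and 23. The latter leaves 1 CARM1 knockout library, assumed to vary like the others. The former ended the calls of Itga3, Ilk and Fermt1 in the CARM1 knockout and of Itga2, Itga3, Itga9 and Itga10 in the NFIB mutant. The latter ended those of Itga1, Itga9, Itgb7, Ilk, Tln2, Fermt1 and Lims2 in the CARM1 knockout and of Itga2, Itga9, Itga10 and Itgb4 in the NFIB mutant. Both leave-outs were chosen after the values had been seen.

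**Figure D1:**
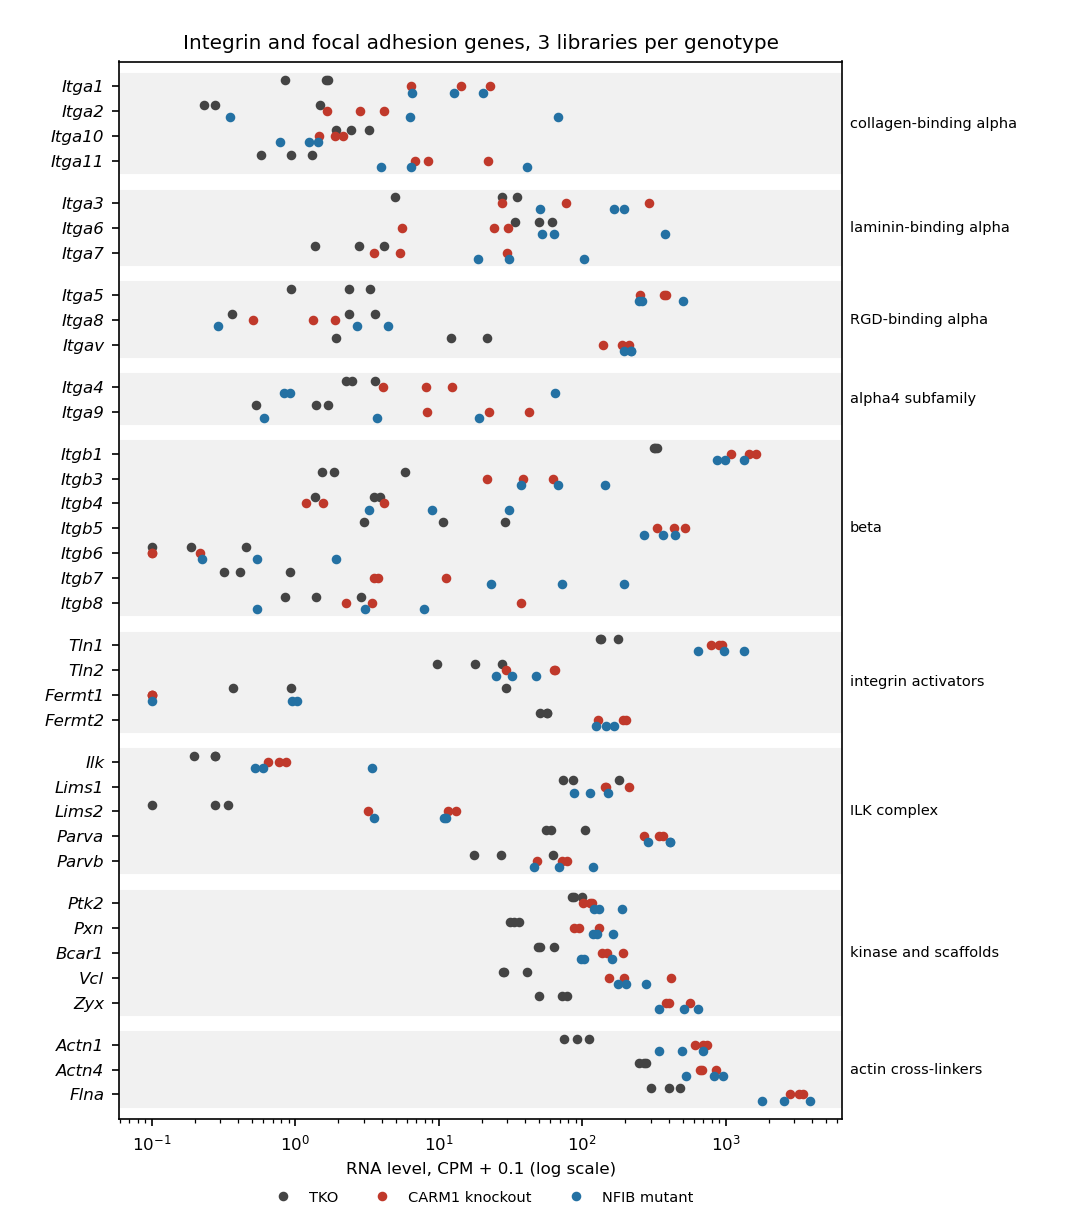
RNA level of each of the 36 genes (horizontal axis, CPM + 0.1, log scale) by role, with 1 point per library and 3 libraries per genotype. The mutants lie to the right of TKO for most genes, with Itga5 at 0.842 to 3.24 CPM in TKO and 248 to 504 in the mutants, while Itga6, Itga8, Lims1 and Fermt1 do not follow.

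Among the RGD-binding alpha subunits, Itga5 and Itgav rose from low levels to among the most abundant alpha transcripts and Itga8 did not pass the test. Itga5, which pairs with beta1 to bind fibronectin, was at 2.26, 3.24 and 0.842 CPM in TKO, 374, 381 and 251 in the CARM1 knockout and 248, 263 and 504 in the NFIB mutant. The lowest mutant library was far above the highest TKO library. Means were 2.11 ± 1.20, 335 ± 73.3 and 338 ± 144 CPM (SD, n = 3 each). That is a log2 fold change of 7.31 (SE 0.61, 158-fold, adjusted p = 0.000447, edgeR) in the CARM1 knockout and 7.32 (SE 0.61, 160-fold, adjusted p = 0.000327) in the NFIB mutant. Among the 35 members, it had the smallest adjusted p in both comparisons.

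Itgav, the alpha subunit of receptors for vitronectin and latent TGF-beta, was at 12.1, 21.6 and 1.82 CPM in TKO, 190, 211 and 139 in the CARM1 knockout and 197, 218 and 219 in the NFIB mutant. All 6 mutant libraries were above TKO, where library 3 was much lower than the others. The rise was 3.93 on the log2 scale (SE 0.75, adjusted p = 0.00729, edgeR) and 4.16 (SE 0.76, adjusted p = 0.00488). Itga8, a receptor for nephronectin, stayed at 0.191 to 4.32 CPM across all libraries and was called in neither mutant (adjusted p = 0.614 and 0.880).

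Of the 4 collagen-binding alpha subunits, Itga1 and Itga11 rose in both mutants. Itga1, a receptor for basement membrane collagen, was at 1.59, 1.53 and 0.753 CPM in TKO, 22.6, 6.30 and 14.2 in the CARM1 knockout and 20.2, 12.6 and 6.42 in the NFIB mutant. No mutant library overlapped TKO, and the log2 fold changes were 3.47 (SE 0.66, adjusted p = 0.00686, edgeR) and 3.34 (SE 0.66, adjusted p = 0.00616). Without the 3 libraries highest in Ptprc the CARM1 knockout call was lost (2.28, adjusted p = 0.153). Itga11, a fibrillar collagen receptor known from fibroblasts, was at 0.481 to 1.20 CPM in TKO, 6.69 to 21.9 in the CARM1 knockout and 3.88 to 41.2 in the NFIB mutant, a rise of 3.86 (SE 1.03, adjusted p = 0.0238) and 4.34 (SE 1.05, adjusted p = 0.0141).

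The other two collagen receptors varied with single libraries. Itga2 was at 67.3, 6.16 and 0.254 CPM in the NFIB mutant, 2.71, 4.08 and 1.57 in the CARM1 knockout and 1.39, 0.131 and 0.177 in TKO. Only NFIB mutant library 1, which was also highest in epithelial markers, was far above the rest. The call in the NFIB mutant (5.43, adjusted p = 0.0466, edgeR) was lost without that library (2.50, adjusted p = 0.199) and without TKO library 2 (4.96, 0.123) or 3 (5.03, 0.112). Itga10, a cartilage collagen receptor that shares 33.5% of its exon bases with the gene model Gm42957, was the 1 member called lower in the NFIB mutant, at 1.34, 0.678 and 1.14 CPM against 3.17, 1.84 and 2.35 in TKO (-1.21, SE 0.48, adjusted p = 0.0698). That call was lost without TKO library 1 or 3, any CARM1 knockout library, or NFIB mutant library 2 or 3 (adjusted p = 0.101 to 0.206). In the CARM1 knockout Itga2 (2.29, adjusted p = 0.296) and Itga10 (-0.50, adjusted p = 0.423) were not called.

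The laminin-binding subunits gave a mixed picture. Itga3, a laminin receptor common in epithelia, was at 27.5, 4.90 and 34.9 CPM in TKO, 27.7, 290 and 76.9 in the CARM1 knockout and 166, 50.8 and 197 in the NFIB mutant. The CARM1 knockout overlapped TKO, the NFIB mutant did not, and both were called higher (2.55, SE 1.02, adjusted p = 0.0852, and 2.62, SE 1.02, adjusted p = 0.0702, edgeR). The CARM1 call was lost without any TKO library, without CARM1 knockout library 2 (1.23, adjusted p = 0.332) or without NFIB mutant library 1 or 3, and the NFIB call without TKO library 1 or 2 or NFIB mutant library 1 or 3 (adjusted p = 0.103 to 0.175 for the rest). Itga7, known from muscle, was at 1.29 to 4.04 CPM in TKO and 18.6, 30.6 and 103 in the NFIB mutant (4.25, SE 1.07, adjusted p = 0.0163). In the CARM1 knockout its levels of 3.43, 5.29 and 29.7 CPM gave no call (2.26, adjusted p = 0.108), but leaving out CARM1 knockout library 3 (adjusted p = 0.0620) or NFIB mutant library 1 (0.0942) did.

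Itga6, whose product pairs with beta1 or beta4, was the leading alpha transcript per length in TKO libraries 1 and 2 and was not called in either mutant. It was at 61.4, 34.2 and 49.6 CPM in TKO, 5.49, 30.1 and 24.3 in the CARM1 knockout and 376, 63.2 and 52.4 in the NFIB mutant. All 3 CARM1 knockout libraries were below TKO (-1.28, SE 0.86, adjusted p = 0.271, edgeR), and NFIB mutant library 1 set the mean of the NFIB mutant (1.76, SE 0.87, adjusted p = 0.134). Without NFIB mutant library 3 the rise was called (2.19, adjusted p = 0.0941).

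The alpha4 subfamily, receptors for VCAM1 and for tenascin and osteopontin, was uneven between libraries. Itga9 was at 8.13, 42.2 and 22.4 CPM in the CARM1 knockout, above the 0.437 to 1.6 of TKO (4.44, SE 1.31, adjusted p = 0.0328, edgeR). In the NFIB mutant it was at 19.1, 3.64 and 0.508 CPM, overlapping TKO, and its call (2.80, SE 1.22, adjusted p = 0.0950) was lost without any 1 library but NFIB mutant library 3, with the lowest value, 0.91, without NFIB mutant library 1 (adjusted p = 0.489). Itga4, a leukocyte integrin subunit, was at 64.7 CPM in NFIB mutant library 2 and at 0.729 and 0.826 in the other two, against 2.17 to 3.50 in TKO and 3.97 to 12.3 in the CARM1 knockout. It was not called (1.59, adjusted p = 0.426, and 3.03, adjusted p = 0.149). Without NFIB mutant library 2 it was called lower in that mutant (-1.78, adjusted p = 0.0773) and higher in the CARM1 knockout (1.59, adjusted p = 0.0636), and without NFIB mutant library 1 or 3 it was called higher (3.61, adjusted p = 0.0775 and 0.0890). The Ptprc level of that library was 25.8 CPM, against 0.365 and 0.191 in the other NFIB mutant libraries, and its level of Pf4, a platelet and megakaryocyte gene, was 207 CPM. Their part in the Itga4 level was not tested.

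**Figure D2:**
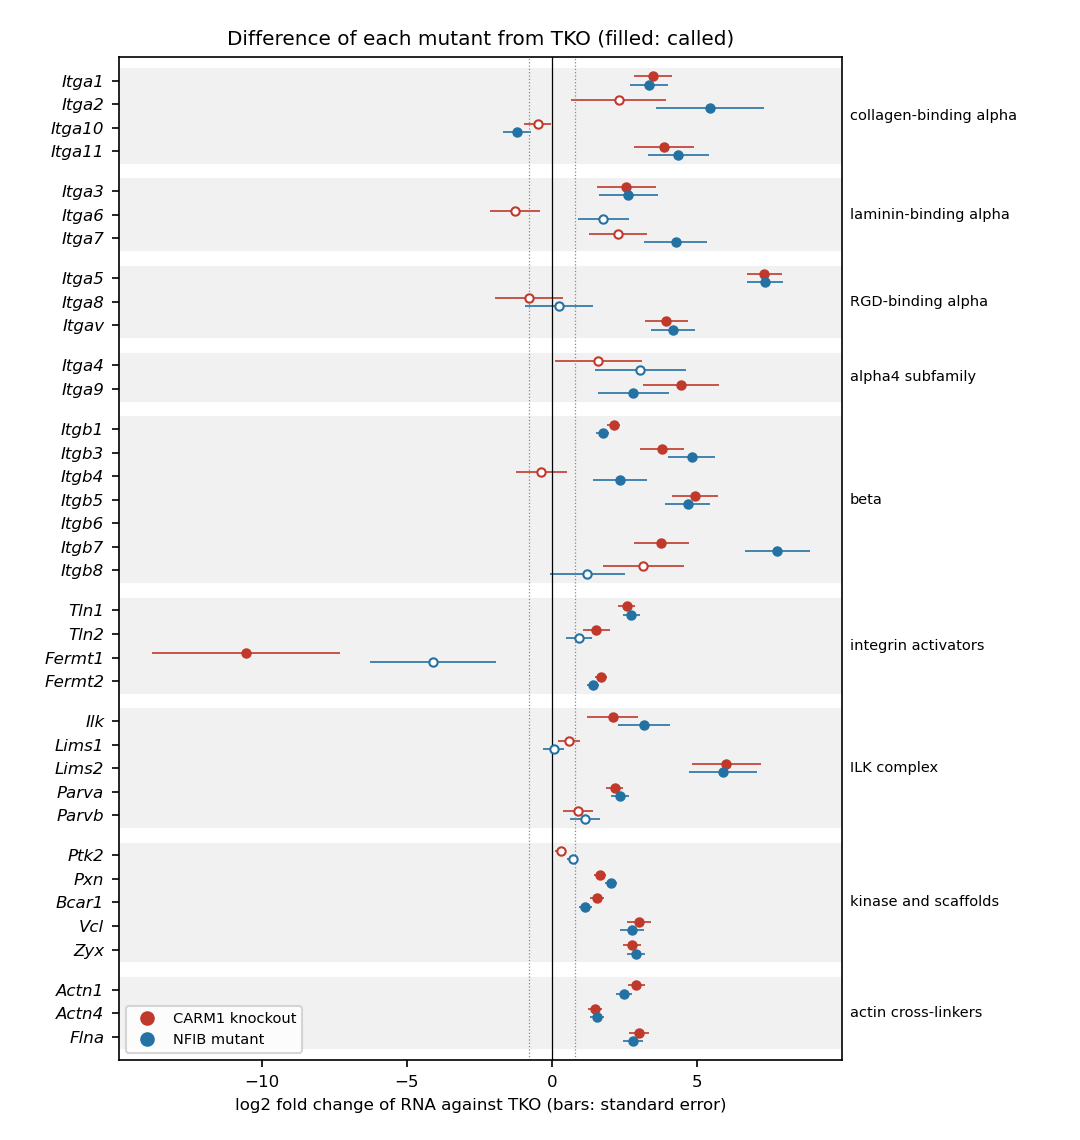
Log2 fold change of each of the 35 tested genes in the CARM1 knockout (red) and the NFIB mutant (blue) against TKO, with bars of 1 standard error. Filled points were called and dotted lines mark the fold limit of 0.8, and the 3 actin cross-linkers all lie between 1.47 and 3.0 with short bars while subunits such as Itga2 have long ones. The Fermt1 value in the CARM1 knockout, -10.54, is a fitted value for a group without counts and is no measure of size.

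Of the 6 beta subunits tested, Itgb1, Itgb3, Itgb5 and Itgb7 rose in both mutants. Itgb1 was at 329, 315 and 319 CPM in TKO, 1461, 1616 and 1086 in the CARM1 knockout and 996, 872 and 1332 in the NFIB mutant. TKO libraries were within a narrow range (321 ± 7.27 CPM, SD, n = 3) and every mutant library lay above it. The rise was 2.11 on the log2 scale in the CARM1 knockout (SE 0.24, 4.32-fold, adjusted p = 0.00109, edgeR) and 1.73 in the NFIB mutant (SE 0.24, 3.32-fold, adjusted p = 0.00159).

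Of the partners of alpha v, Itgb5 and Itgb3 were called higher in both mutants. Itgb5, of the alpha v beta 5 vitronectin receptor, was at 29.0, 10.6 and 2.92 CPM in TKO, 334, 434 and 520 in the CARM1 knockout and 268, 442 and 363 in the NFIB mutant. The groups were far apart (4.92, SE 0.79, adjusted p = 0.00377, edgeR, and 4.66, SE 0.78, adjusted p = 0.00337). Itgb3, of the alpha v beta 3 receptor and of the platelet fibrinogen receptor, was at 5.72, 1.44 and 1.77 CPM in TKO, 62.5, 38.4 and 21.6 in the CARM1 knockout and 68.2, 143 and 37.2 in the NFIB mutant. It too did not overlap (3.78, SE 0.76, adjusted p = 0.00898, and 4.80, SE 0.80, adjusted p = 0.00340). The highest Itgb3 level, 143 CPM, was in NFIB mutant library 2. There the 4 platelet markers summed to 211 CPM, against 0.729 and 1.65 in NFIB mutant libraries 1 and 3. The part of platelets in the Itgb3 level was not tested. Itgb8, which activates latent TGF-beta with alpha v, was at 37.3 CPM in CARM1 knockout library 2 and 0.445 to 7.78 in all others, and was not called (3.14, adjusted p = 0.109, and 1.21, adjusted p = 0.470). Leaving out CARM1 knockout library 1 (adjusted p = 0.0970) or 3 (0.0848) or NFIB mutant library 3 (0.0901) gave a call in the CARM1 knockout. Itgb6, the epithelial partner of alpha v, was at most at 1.82 CPM, in NFIB mutant library 1.

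In the NFIB mutant, though not in the CARM1 knockout, Itgb7 had the highest fold of any member that was above the limit of detection in each library. It was at 0.817, 0.219 and 0.310 CPM in TKO, 11.2, 3.67 and 3.43 in the CARM1 knockout and 23.2, 196 and 71.7 in the NFIB mutant. All 6 mutant libraries were above TKO (3.75, SE 0.95, adjusted p = 0.0200, edgeR, in the CARM1 knockout and 7.75, SE 1.11, 215-fold, adjusted p = 0.00197, in the NFIB mutant). Its highest level was in the NFIB mutant library with the 25.8 CPM of Ptprc, and NFIB mutant library 3 had 71.7 CPM of Itgb7 with 0.191 CPM of Ptprc. The part of leukocytes in the Itgb7 level was not tested. Without the 3 libraries highest in Ptprc the NFIB mutant was still called higher, and the CARM1 knockout value of 3.03 missed the limit (adjusted p = 0.102). Itgb4, the hemidesmosome subunit, was called higher in the NFIB mutant only, at 8.94, 30.9 and 3.18 CPM against 1.29 to 3.80 in TKO (2.33, SE 0.93, adjusted p = 0.0736). That call was lost without any TKO library (adjusted p = 0.122 to 0.161) or without NFIB mutant library 2 (1.1, adjusted p = 0.334). In the CARM1 knockout it was at 1.08 to 4.05 CPM (-0.37, adjusted p = 0.764), and the difference between the mutants did not pass the test (adjusted p = 0.526).

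Divided by exon length, the subunit transcripts were made up differently in TKO and in the mutants, a description that follows from the levels above. Summed over the 12 alpha subunits the level was 8.53 to 15.5 CPM per kilobase in TKO and 87.0 to 174 in the mutants. Itga6 made up 44.0, 44.4 and 40.3% of that sum in TKO and Itga3 31.1, 10.1 and 44.9%, so that laminin receptors led. Itga5 came first in each of the 6 mutant libraries, with 72.3, 46.5 and 58.4% in the CARM1 knockout and 28.9, 52.4 and 61.3% in the NFIB mutant. In NFIB mutant library 1, the one highest in epithelial markers, Itga6 was next with 24.0%.

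Itgb1 stayed the first beta transcript in every library, with 88.9, 95.2 and 97.8% of the summed beta level in TKO, 76.7, 74.8 and 63.6% in the CARM1 knockout and 71.4, 48.8 and 70.8% in the NFIB mutant. Itgb5 came next, at 8.98, 3.68 and 1.03% in TKO, 20.1, 23.1 and 34.99% in the CARM1 knockout and 22.1, 28.4 and 22.1% in the NFIB mutant. Itgb7 reached 16.2% in NFIB mutant library 2. The summed beta level was 79.9 to 90.8 CPM per kilobase in TKO and 342 to 530 in the mutants.

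**Figure D3:**
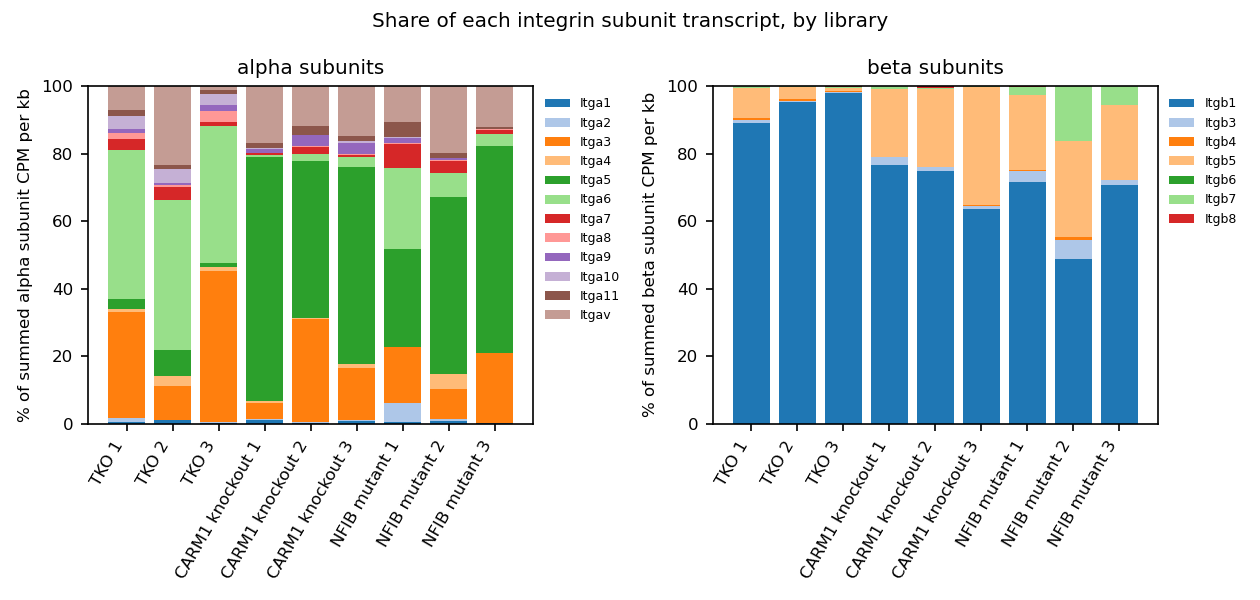
Share of each alpha subunit (left) and beta subunit (right) in the summed CPM per kilobase of exon of its kind, in percent, for the 9 RNA-seq libraries. Itga6 and Itga3 fill most of the alpha bars of TKO libraries 1 and 3, Itga5 is the largest part of every mutant bar, and Itgb1 leads every beta bar.

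Among the integrin activators, Tln1 and Fermt2 rose in both mutants. Tln1, the main talin of non-muscle cells, was at 134, 136 and 177 CPM in TKO, 947, 902 and 788 in the CARM1 knockout and 638, 971 and 1339 in the NFIB mutant. The groups did not overlap (2.56, SE 0.29, adjusted p = 0.00113, edgeR, and 2.72, SE 0.30, adjusted p = 0.000770). Tln2, its paralog, was at 9.71, 17.8 and 27.7 CPM in TKO and 29.2, 64.7 and 64.0 in the CARM1 knockout, and was called there (1.52, SE 0.47, adjusted p = 0.0383), though not without TKO library 2 (1.5, adjusted p = 0.1005) or CARM1 knockout library 2 (1.35, adjusted p = 0.105). In the NFIB mutant its 25.2, 32.2 and 47.2 CPM overlapped TKO (0.92, adjusted p = 0.137), with a call without TKO library 3 (1.37, adjusted p = 0.0569).

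Fermt2, the kindlin of mesenchymal cells, rose evenly. It was at 56.5, 56.9 and 50.9 CPM in TKO, 194, 202 and 129 in the CARM1 knockout and 166, 125 and 146 in the NFIB mutant (1.68, SE 0.20, adjusted p = 0.00138, edgeR, and 1.41, SE 0.20, adjusted p = 0.00191). Fermt1, the epithelial kindlin, was the 1 member called lower in the CARM1 knockout. It was at 29.5, 0.831 and 0.266 CPM in TKO, had 0 counts in all 3 CARM1 knockout libraries, and was at 0.851, 0.925 and 0 CPM in the NFIB mutant. TKO library 1 held most of it, so the level was at least 56.0-fold lower in the CARM1 knockout against a limit of 3 counts per library (0.182 CPM), and at least 3.01-fold lower with TKO library 1 left out. The call (adjusted p = 0.0507) was lost without that library (adjusted p = 0.101) and without CARM1 knockout library 1 (0.105) or 2 (0.103), and Fermt1 was not called in the NFIB mutant (-4.09, adjusted p = 0.173).

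Of the 5 genes of the integrin-linked kinase complex, Parva and Lims2 rose in both mutants. Parva, an actin-binding parvin, was at 56.1, 60.3 and 104 CPM in TKO, 367, 343 and 268 in the CARM1 knockout and 288, 412 and 412 in the NFIB mutant (2.15, SE 0.29, adjusted p = 0.00209, edgeR, and 2.33, SE 0.29, adjusted p = 0.00123). Lims2, a PINCH adaptor, was near the limit of detection in TKO at 0.240, 0.175 and 0 CPM, and at 11.5, 3.09 and 13.1 in the CARM1 knockout and 3.47, 10.7 and 11.1 in the NFIB mutant (6.0, SE 1.18, adjusted p = 0.00794, and 5.87, SE 1.17, adjusted p = 0.00671). Neither gene overlapped between TKO and the mutants, but the Lims2 call in the CARM1 knockout was lost without the 3 libraries highest in Ptprc (4.42, adjusted p = 0.125).

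Their paralogs Parvb and Lims1 did not pass the test. Lims1 was at 73.7 to 180 CPM in TKO, 145 to 212 in the CARM1 knockout and 87.0 to 151 in the NFIB mutant (0.57, adjusted p = 0.257, and 0.05, adjusted p = 0.925, edgeR), with a call in the CARM1 knockout without TKO library 3 (1.1, adjusted p = 0.0296). Parvb was at 17.5 to 62.6, 48.5 to 78.2 and 46.0 to 119 CPM (0.90, adjusted p = 0.204, and 1.13, adjusted p = 0.112), with calls without TKO library 1 (1.6, adjusted p = 0.0477, and 1.82, adjusted p = 0.0280) and, in the NFIB mutant, without its library 1 (1.40, adjusted p = 0.0820). Ilk itself was counted at 0.0961 to 0.177 CPM in TKO, 0.542 to 0.758 in the CARM1 knockout and 0.426 to 3.30 in the NFIB mutant. It was called higher (2.09, adjusted p = 0.0971, and 3.17, adjusted p = 0.0239), but 89.7% of its exon bases are shared with the antisense genes Rrp8 and Taf10, and the strand setting of the counting is not given in the sources used here, so its level is uncertain. The CARM1 knockout call was lost without any 1 TKO or CARM1 knockout library (adjusted p = 0.146 to 0.224).

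All 5 genes of the kinase and scaffold group had every mutant library above every TKO library, and 4 of them were called in both mutants. Pxn, which encodes the scaffold paxillin, was at 31.4, 33.6 and 35.9 CPM in TKO, 95.2, 131 and 87.8 in the CARM1 knockout and 118, 127 and 165 in the NFIB mutant (1.64, SE 0.21, adjusted p = 0.00157, edgeR, and 2.02, SE 0.21, adjusted p = 0.000641). Bcar1, the scaffold p130Cas, rose from 49.3 to 63.2 CPM to 137 to 193 and 98.3 to 160 (1.55, adjusted p = 0.00335, and 1.15, adjusted p = 0.00794). Zyx, the stress-fiber protein zyxin, was at 71.9, 78.6 and 50.2 CPM in TKO, 561, 401 and 386 in the CARM1 knockout and 340, 516 and 643 in the NFIB mutant (2.75, SE 0.31, adjusted p = 0.00108, and 2.90, SE 0.31, adjusted p = 0.000740).

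Vcl was at 41.1, 27.8 and 28.4 CPM in TKO, 197, 413 and 154 in the CARM1 knockout and 177, 201 and 279 in the NFIB mutant (2.97, SE 0.41, adjusted p = 0.00231, and 2.76, SE 0.41, adjusted p = 0.00216, edgeR). Its exons share 25.5% of their bases with the antisense gene Ap3m1. Ptk2, which encodes FAK, changed least of the 5. It was at 84.7, 98.9 and 88.1 CPM in TKO, 114, 101 and 117 in the CARM1 knockout and 131, 120 and 190 in the NFIB mutant, and its log2 fold changes of 0.29 (SE 0.19, adjusted p = 0.264) and 0.70 (SE 0.19, adjusted p = 0.0222) were under the fold limit. Without NFIB mutant library 2 the latter was 0.83 (adjusted p = 0.0241) and passed.

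The 3 actin cross-linkers rose in both mutants. Flna, which encodes filamin A, was at 404, 301 and 483 CPM in TKO, 3440, 3231 and 2815 in the CARM1 knockout and 1786, 2562 and 3836 in the NFIB mutant (3.0, SE 0.34, adjusted p = 0.00110, edgeR, and 2.79, SE 0.34, adjusted p = 0.00108). Actn1 was at 111, 75.0 and 91.2 CPM in TKO, 699, 744 and 614 in the CARM1 knockout and 343, 697 and 498 in the NFIB mutant (2.89, SE 0.30, adjusted p = 0.000808, and 2.47, SE 0.29, adjusted p = 0.000956). Actn4, the second non-muscle alpha-actinin, rose less, from 278, 250 and 268 CPM to 659, 858 and 681 and to 527, 822 and 960 (1.47, SE 0.25, adjusted p = 0.00426, and 1.54, SE 0.25, adjusted p = 0.00281). In none of the 3 did a mutant library reach down to TKO.

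The question for ATAC-seq was whether chromatin at the starts of these genes differed too. Peaks were fitted in edgeR in the same way, 111116 of them, and their calls asked for an adjusted p below 0.1 with a log2 fold change of 0.5 or more in size. Of the 33 members with a peak at the start of the gene itself, 7 had it called higher (13.1% of own-start peaks of all tested genes) and 3 lower (35.4%) in the CARM1 knockout, and 6 higher (13.2%) and 4 lower (41.1%) in the NFIB mutant. Their median log2 fold change was 0.01 and 0.07, against -0.35 and -0.41 for own-start peaks of all tested genes. In 8 of 33 all mutant libraries were above TKO (11.8% of all) and in 3 below (42.1%).

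These numbers hang on how libraries are scaled. DESeq2's size factors moved the median of all peaks by -0.18 and -0.15, library totals by 0.57 and 0.57, and a scaling on start-site peaks of evenly expressed genes by 0.39 and 0.47. Under library totals 19 members had their own-start peak called higher and 1 lower in the CARM1 knockout, and 16 and 1 in the NFIB mutant. With the evenly expressed genes the split was 11 and 1, and 15 and 1, and with DESeq2's size factors 6 and 4, and 6 and 6. Over all own-start peaks the calls that were higher went from 27.0% and 24.3% to 70.5% and 63.8% (library totals), 57.1% and 55.8% (evenly expressed genes) and 18.6% and 18.3% (size factors). Values below are on the TMM scale, with the library totals moving each of them up by about the shift given.

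The starts that opened most were those of Itga5, Itgb7 and Itgav, whose upstream bases are printed above. The Itga5 peak (chr15:103365077-103369101) was at 4.08, 3.68 and 5.28 CPM in TKO, 34.7, 38.5 and 27.3 in the CARM1 knockout and 35.1, 33.8 and 41.4 in the NFIB mutant (2.95, adjusted p = 1.13e-05, edgeR, and 3.08, adjusted p = 8.28e-06). The Itgb7 peak (chr15:102230161-102234831) was at 3.12, 2.63 and 3.89 CPM in TKO, 41.8, 25.6 and 34.6 in the CARM1 knockout and 39.2, 46.7 and 41.7 in the NFIB mutant (3.41, adjusted p = 9.38e-06, and 3.73, adjusted p = 6.32e-06). For both, all mutant libraries were several times above TKO. At the Itgb7 start the libraries of the mutants overlapped, while the RNA means were 6.10 CPM in the CARM1 knockout and 97.0 in the NFIB mutant.

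Itgav (chr2:83723499-83725801) went from 4.53, 11.1 and 5.15 CPM to 30.3, 35.7 and 27.7 and to 33.7, 41.1 and 30.0 (2.17, adjusted p = 0.000329, edgeR, and 2.33, adjusted p = 0.000200). Itga1 (chr13:115100596-115102621) went from 7.27, 5.93 and 8.87 CPM to 21.9, 19.2 and 17.7 and to 23.1, 21.7 and 21.4 (1.41, adjusted p = 0.000427, and 1.59, adjusted p = 0.000204). Smaller rises were called at Itgb5 (0.83, adjusted p = 0.00573, and 0.75, adjusted p = 0.00888) and Itgb3 (0.72, adjusted p = 0.0529, and 1.02, adjusted p = 0.0117). The Itgb3 call in the CARM1 knockout was lost without TKO library 1 (0.62, adjusted p = 0.140) or 2 (0.52, 0.161) or CARM1 knockout library 2 (0.68, 0.119). Bcar1 was called in the CARM1 knockout (0.72, adjusted p = 0.00252) and fell just under the fold limit in the NFIB mutant (0.48, adjusted p = 0.0175), where it passed without TKO library 2 or 3 (0.52 each) or NFIB mutant library 1 (0.61).

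**Figure D4:**
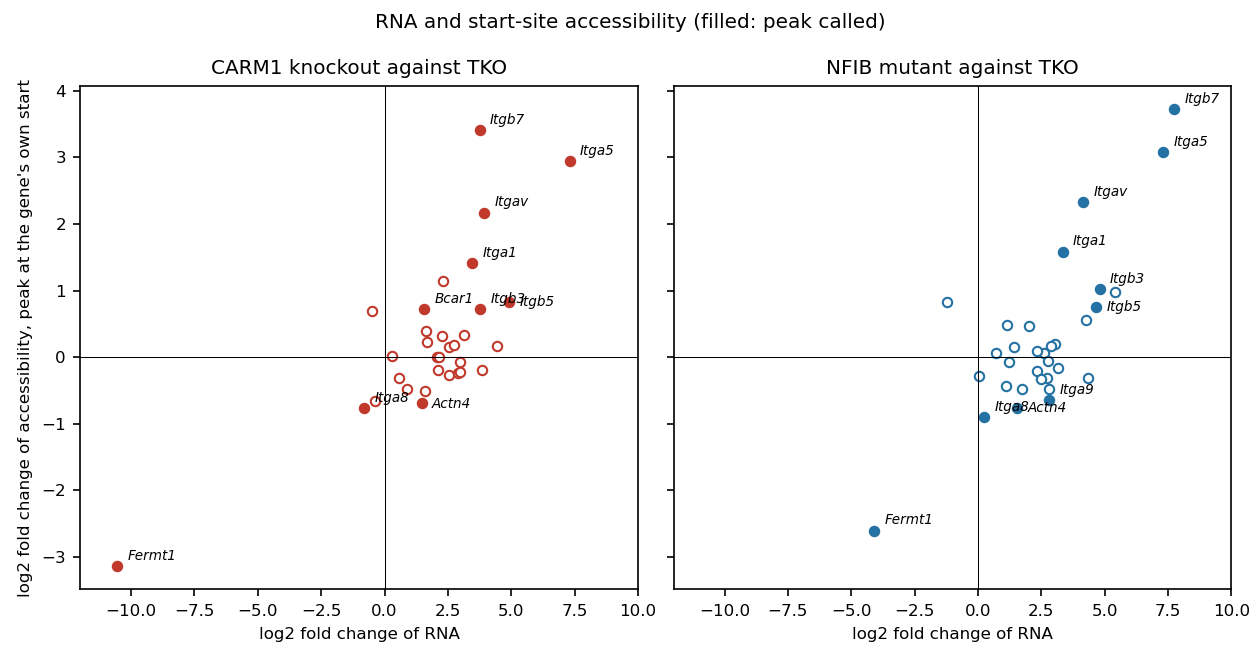
Log2 fold change of RNA (horizontal) and of the peak at the gene's own start (vertical) for each member with both, CARM1 knockout left and NFIB mutant right, with filled points for called peaks. Itga5, Itgb7, Itgav and Itga1 lie up and right, while most members are right of 0 on the RNA axis with a start peak within 0.5 of 0. The Fermt1 RNA value in the CARM1 knockout, -10.54, is a fitted value for a group without counts.

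Most members whose RNA rose showed no called change at their start on the TMM scale, as did many of all genes called higher. Of the 21 members called higher in RNA in the CARM1 knockout with an own-start peak, 7 had it called higher and 1 lower, against 40.1% and 8.89% of all such genes. In the NFIB mutant it was 6 and 2 of 24, against 39.0% and 12.5%. The Itgb1 start (chr8:128685023-128686832) was at 48.5, 53.0 and 54.2 CPM in TKO, 41.9, 50.5 and 43.7 in the CARM1 knockout and 30.1, 46.6 and 34.9 in the NFIB mutant (-0.19, adjusted p = 0.335, and -0.48, adjusted p = 0.0285, edgeR). The latter passed as lower without TKO library 1 (-0.53) or NFIB mutant library 2 (-0.67), with DESeq2's size factors (-0.63, adjusted p = 0.00824), by DESeq2's test (-0.62) and with a replicate block (-0.50, adjusted p = 0.0134). Vcl (chr14:20928170-20931508) was at 63.4, 62.4 and 46.6 CPM, 48.4, 60.01 and 55.8, and 51.6, 62.4 and 51.2 (-0.07, adjusted p = 0.711, and -0.06, adjusted p = 0.744), groups that overlapped. With library totals as the scale it was called higher in both (0.53 and 0.52).

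The starts of Zyx (0.18 and 0.17), Parva (0.00 and 0.09), Fermt2 (0.23 and 0.15), Actn1 (-0.24 and -0.33), Ptk2 (0.01 and 0.06), Flna (-0.22 and -0.47) and Pxn (0.39 and 0.46) were not called either, with the log2 fold changes given for the CARM1 knockout and the NFIB mutant. Those of Zyx, Fermt2 and Pxn were called higher in both mutants with library totals and with evenly expressed genes as the scale. Those of Parva and Ptk2 were called higher in both with library totals and in the NFIB mutant with evenly expressed genes. In the NFIB mutant those of Actn1 (-0.57, without its library 2) and Flna (-0.57, without TKO library 3 or NFIB mutant library 3) passed as lower, the latter also with DESeq2's size factors and by DESeq2's test. The RefSeq start of Flna lay in a neighbouring peak (chrX:74243240-74248003), with a TKO mean of 45.2 CPM against 21.1 at the outermost start. That peak was not called in either mutant (0.31, adjusted p = 0.0912, and 0.19, adjusted p = 0.274, edgeR). For Pxn every mutant library was above TKO, a filter of at least 10 counts in every library gave a call in both (0.55 and 0.63), and leaving out TKO library 3 (0.55) or NFIB mutant library 1 (0.53) or 3 (0.54) gave a call in the NFIB mutant. Actn4 went the other way from its RNA. Its start (chr7:28961130-28963038) was at 29.5, 27.0 and 33.6 CPM in TKO, 14.9, 18.3 and 22.3 in the CARM1 knockout and 15.4, 20.1 and 17.8 in the NFIB mutant (-0.69, adjusted p = 0.0122, and -0.76, adjusted p = 0.00760, edgeR). That fall was not called with library totals or with evenly expressed genes as the scale, nor was that of Itga8 (-0.76, adjusted p = 0.0304, and -0.91, adjusted p = 0.0137).

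Fermt1 fell at its start as well, on every scale tried. Its peak (chr2:132945259-132946192) was at 12.1, 5.13 and 0.887 CPM in TKO, 0.465, 0.595 and 0.992 in the CARM1 knockout and 1.58, 0.962 and 0.451 in the NFIB mutant (-3.14, adjusted p = 0.00746, edgeR, and -2.60, adjusted p = 0.0156). TKO library 3 lay within the range of the mutants. At Itga9 the own-start peak was called lower in the NFIB mutant (-0.64, adjusted p = 0.0972) and that call was lost without TKO library 1 or 3, CARM1 knockout library 3, or NFIB mutant library 2 or 3 (adjusted p = 0.124 to 0.226). Itga6 had no peak at its own start, and one at a transcript start 41798 bp further in (chr2:71786487-71788342) fell from 30.2, 24.2 and 22.8 CPM to 8.94, 14.1 and 16.4 and to 16.7, 11.96 and 16.3 (-0.97, adjusted p = 0.00801, and -0.78, adjusted p = 0.0211), with no overlap, but was not called in either mutant with library totals as the scale, nor in the NFIB mutant with evenly expressed genes.

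Annotated starts inside the genes added further calls to those at the first ones. Of the 71 start-site peaks of the members 28 were called higher (18.8% of start-site peaks of all tested genes) and 12 lower (34.7%) in the CARM1 knockout, and 22 higher (19.1%) and 14 lower (39.1%) in the NFIB mutant. On the scale of evenly expressed genes these were 34 and 9, and 37 and 10. The shares pool own and inner starts, so inner starts alone have no share beside them. For all tested genes, too, the share called higher was larger over all start-site peaks than over own-start peaks (13.1% and 13.2%). Whether transcripts start at the inner starts was not measured.

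Tln1 shows a rise at inner starts most clearly. Its own start (chr4:43561516-43563950), shared with Creb3, was at 52.8, 57.3 and 55.5 CPM in TKO and 39.7 to 50.5 in the mutants (-0.26, adjusted p = 0.119, and -0.32, adjusted p = 0.0656, edgeR). A peak 4329 bp inside the gene (chr4:43557401-43559323) was at 1.18, 1.39 and 1.73 CPM in TKO, 24.9, 23.0 and 26.7 in the CARM1 knockout and 20.2, 26.0 and 30.0 in the NFIB mutant (4.12, adjusted p = 6.91e-06, and 4.15, adjusted p = 6.23e-06). The peak between them rose by 2.37 and 2.70.

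Fermt2 had the same pattern at a start 52264 bp inside the gene (chr14:45477525-45478182), with 0.0956, 0.155 and 0.127 CPM in TKO, near the limit of detection, 4.68, 2.88 and 4.91 in the CARM1 knockout and 4.69, 3.39 and 6.02 in the NFIB mutant (5.01, adjusted p = 5.52e-05, edgeR, and 5.19, adjusted p = 4.1e-05). A neighbouring peak (chr14:45478641-45480221) rose by 3.77 and 4.06. Further inner starts called higher in both mutants were those of Itgb5 (3.28 and 2.57, 2.17 and 2.36, 0.94 and 1.12), Pxn (2.70 and 2.76), Ptk2 (2.18 and 2.73), Lims2 (2.62 and 2.74, 1.19 and 1.36), Actn4 (2.38 and 1.83), Ilk (1.75 and 1.75), Zyx (1.04 and 1.54) and Flna (1.29 and 0.72). Besides that of Itga6 given above, inner starts called lower in both were at Itgb5 (-3.01 and -4.48, -3.11 and -3.16, -2.16 and -2.86), Lims1 (-4.0 and -3.31, -1.91 and -2.89), Actn1 (-2.55 and -3.18), Actn4 (-1.31 and -2.45) and Parva (-2.27 and -4.31). The Parva call in the CARM1 knockout was lost without TKO library 1 (-1.94, adjusted p = 0.104), that of the first Lims1 peak in the NFIB mutant without TKO library 3 (-0.98, adjusted p = 0.25), and that of Flna in the NFIB mutant without TKO library 1 (0.62, adjusted p = 0.112) or NFIB mutant library 3 (0.38, adjusted p = 0.230). The Actn4 fall in the CARM1 knockout was lost without TKO library 2 or 3 or CARM1 knockout library 1 or 3 (adjusted p = 0.125 to 0.165), and with library totals or evenly expressed genes as the scale.

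**Figure D5:**
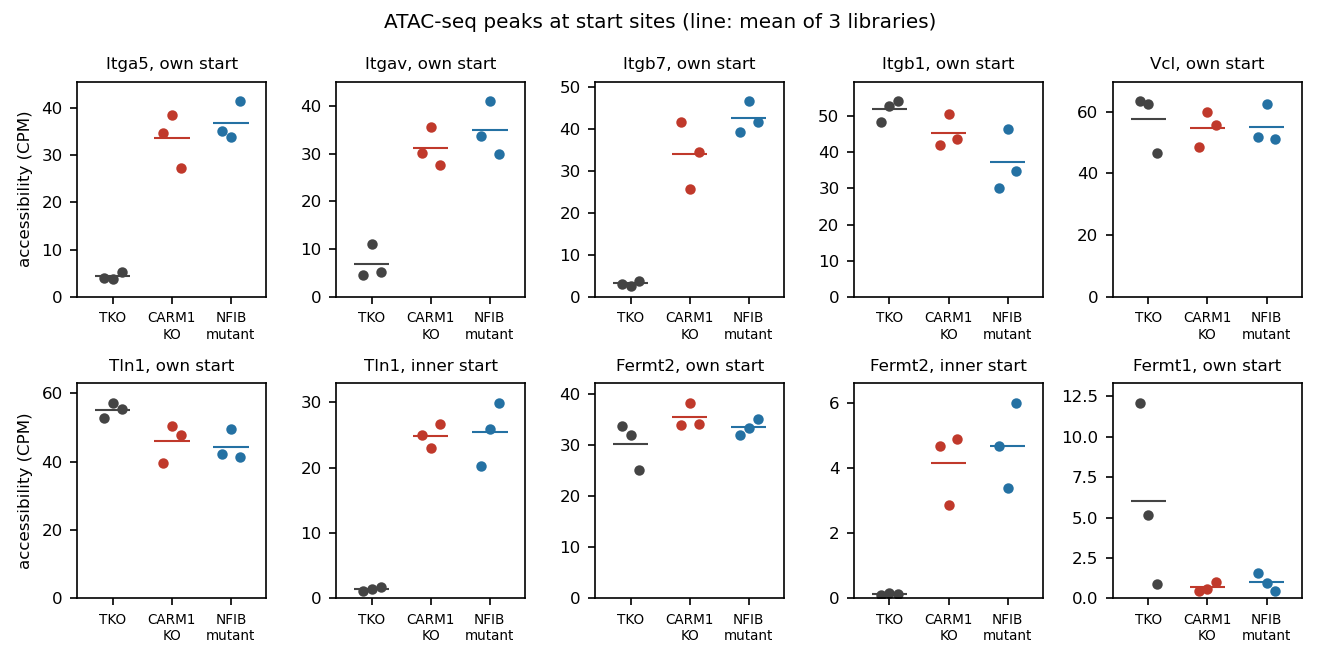
Accessibility in CPM (vertical axis from 0, with its own range in each panel) of 10 start-site peaks, with 1 point per library and a line at the mean of 3. The own starts of Itga5, Itgav and Itgb7 rise in all 6 mutant libraries, those of Itgb1, Vcl, Tln1 and Fermt2 do not, the inner starts of Tln1 and Fermt2 rise from near 0, and Fermt1 falls.

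The mutants were not told apart at these genes. Of the 35 members tested, 0 were called between the CARM1 knockout and the NFIB mutant in either direction (0.0% of all genes) by edgeR's quasi-likelihood test, with a smallest adjusted p of 0.487 and 3 members at an unadjusted p under 0.05 (1414 of all genes). DESeq2's Wald test called 3 of 35 members lower in the CARM1 knockout, Itgb7, Itga6 and Itgb4 (1.28% of all genes), and 0 higher (1.84%). Differences ranged widely in precision: -0.01 on the log2 scale for Itga5 (SE 0.46), 0.38 for Itgb1 (SE 0.23), 0.21 for Flna (SE 0.32), -3.03 for Itga6 (SE 0.92) and -3.99 for Itgb7 (SE 0.92). The median absolute difference was 0.41 over the members and 0.32 over all genes. At the 71 start-site peaks 0 were called either way (0.0% of all), with a smallest adjusted p of 0.752 and 4 peaks at an unadjusted p under 0.05 (6813 of all peaks), and DESeq2's test called 0 higher (0.471% of all peaks) and 0 lower (0.484%). With 3 libraries a genotype, a missed limit does not show that the mutants are alike.

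Beyond the 36 genes, other components of adhesions and the ligands of integrins were counted from lists. Of 44 further adhesion components 23 were called higher (20.5% of all genes) and 3 lower (18.3%) in the CARM1 knockout and 24 higher (22.3%) and 5 lower (23.5%) in the NFIB mutant, with medians of 1.75 and 1.55. Tgfb1i1, which encodes the paxillin relative Hic-5, was at 0.961, 0.481 and 2.35 CPM in TKO, 176, 57.0 and 97.1 in the CARM1 knockout and 64.0, 99.8 and 87.5 in the NFIB mutant (6.44, adjusted p = 0.00110, edgeR, and 6.04, adjusted p = 0.00101). Flnc, the muscle filamin, was at 3.6, 7.35 and 0.842 CPM in TKO and 222 to 899 in the mutants (6.10, adjusted p = 0.00308, and 6.89, adjusted p = 0.00176). Evl, an actin-elongation factor, fell from 164, 144 and 99.4 CPM to 58.4, 63.4 and 68.8 and to 43.5, 39.6 and 40.2 (-1.1, adjusted p = 0.00551, and -1.73, adjusted p = 0.000923).

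Of 29 integrin ligand genes tested 23 were called higher (20.5% of all genes) and 1 lower (18.3%) in the CARM1 knockout and 22 higher (22.3%) and 1 lower (23.5%) in the NFIB mutant, with medians of 4.65 and 4.73. The largest rises were the collagen I chains, which are also in the fibroblast list, as is Col3a1. Col1a1 was at 0.288, 3.85 and 0.354 CPM in TKO and 2372 to 10055 in the mutants (12.31, adjusted p = 0.00116, edgeR, and 11.60, adjusted p = 0.00102). Col1a2 was at 0, 5.03 and 0.354 CPM in TKO and 2589 to 8270 in the mutants (11.51, adjusted p = 0.00324, and 10.88, adjusted p = 0.00279). The 1 lower gene, named after its values were seen, was Vtn, which encodes vitronectin, at 1.68, 208 and 3.01 CPM in TKO and 0 to 2.04 in the mutants (-6.20, adjusted p = 0.0513, and -9.63, adjusted p = 0.0191), with TKO library 2 holding most of it.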

How the data were processed

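RNA-seq and ATAC-seq of SCLC cells from 3 genotypes were used, 9 libraries per assay. The authors trimmed RNA-seq reads with Trim Galore, mapped them with hisat2 and counted them per gene with htseq-count. For ATAC-seq they mapped with Bowtie2 and removed duplicates with Picard. They deposited raw counts of both, those on 1 merged peak set from featureCounts per the file header. The peak caller is MACS2 in the study's methods and Genrich in the submitters' notes. The strand setting of the counting is not given in the sources used here. The genome was GRCm38, and transcript starts came from GENCODE. The 5 summary entries of htseq-count stayed out of all sums.

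The deposited counts were scaled by TMM and tested with edgeR 4.0.16 in R 4.3.3 (filterByExpr, robust quasi-likelihood test, Benjamini-Hochberg over all features, no block). DESeq2 1.42.0 and limma 3.58.1 were loaded beside it. Tables were handled with pandas 2.3.3 and numpy 2.4.6 in Python 3.11.15, and drawn with matplotlib 3.10.9. The fit was checked on simulated counts. Columns headed C, KO and N were read as TKO, CARM1 knockout and NFIB mutant. Identical libraries were looked for, and 0 pairs found.

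Members, lists, markers and tests were chosen with earlier results of these data known. All members may be named, and from the other lists the 2 largest rises and falls among genes called alike in both mutants, not overlapping TKO, with a mean of at least 5 CPM. Alternatives were other scalings, filters, thresholds and fits, the DESeq2 test, a replicate block and leaving out libraries.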

Additional observations from a re-analysis of the deposited data

How the results depend on the processing

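Members called against TKO numbered 24 in the CARM1 knockout and 26 in the NFIB mutant, and 18 to 25 and 21 to 28 under the alternatives, the lowest of the former without the 3 libraries highest in Ptprc. Of these, 16 and 21 were called under every alternative that tested them. Start-site peaks called were 40 and 36, with 36 to 52 and 35 to 48 under the alternatives that kept all such peaks, and 10 and 10 when only peaks at the genes' own starts were counted, which leaves 33 of the 71. Of the 40 and 36, 31 and 29 were called under every alternative. The median log2 fold change of the members in the CARM1 knockout, 2.26, was 1.96 with library totals, 2.59 without the 2 libraries highest in epithelial markers, and 1.92 to 2.63 with 1 library left out. In the NFIB mutant, 2.62 became 2.27 with library totals, 2.41 with at least 10 counts in every library, which kept 27 members, and 2.26 to 2.70 with 1 library left out. Both sets of left-out libraries were chosen after seeing the data. Between the mutants DESeq2's Wald test called 3 members, Itgb7 (adjusted p = 0.000935), Itga6 (0.0282) and Itgb4 (0.0779), where edgeR called 0; the cause was not tested. A replicate block gave 23 and 23 members, 40 and 36 peaks (the Itgb1 start among them), and a median of 2.35 in the NFIB mutant. Libraries that share a number did not deviate together: their correlations were -0.30 to 0.12 in RNA-seq and -0.14 to 0.12 in ATAC-seq, with 3 of 9 and 2 of 9 libraries closest to their own number, so the numbers were not taken as pairs.

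The sign turned with a call on 1 side for 5 values, none of them called in the fit reported. Itga4 RNA in the NFIB mutant was -1.78 to 3.61 with 1 library left out and its own-start peak -1.85 to 0.69, both lowest without NFIB mutant replicate 2. The Itgb8 own-start peak in the NFIB mutant was -0.32 to 0.52, highest without TKO replicate 3. The Vcl own-start peak was 0.53 in the CARM1 knockout and 0.52 in the NFIB mutant with library totals, which raised the median of all peaks by 0.57 in each. A further 4 RNA-seq and 39 ATAC-seq values changed sign under some alternative with no call on either side. Depth limits Itgb6 in most libraries, and Ilk and Lims2 in TKO. For Ilk the shared exon bases given above also leave the level uncertain. The limit of 3 counts is 0.143 to 0.189 CPM, depending on the library.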

Other observations

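Leukocyte and platelet integrins, which are not among the 36 genes, were counted from a list of 8, of which 5 were tested. Those described were named after their values had been seen. Itgb2, the beta subunit shared by leukocyte integrins, was at 4.32, 0.437 and 2.57 CPM in TKO, 63.1, 22.2 and 71.0 in the CARM1 knockout and 2.80, 87.3 and 6.29 in the NFIB mutant, and was called higher in both (4.41, adjusted p = 0.0467, and 3.71, adjusted p = 0.0627, edgeR). Itgam, of macrophages and granulocytes, was at 0.0437 to 3.12 CPM in TKO, 92.3, 13.9 and 293 in the CARM1 knockout and 0.0608, 186 and 0.826 in the NFIB mutant, and was called in the CARM1 knockout (6.92, adjusted p = 0.0908). Ptprc, a marker of leukocytes, was at 29.1, 1.87 and 57.7 CPM in the CARM1 knockout and 0.365, 25.8 and 0.191 in the NFIB mutant, and its part in these values was not tested. Itga2b, of platelets, was at 2.10 to 3.41 CPM in TKO and 5.24 to 8.39 in the NFIB mutant (1.41, adjusted p = 0.0308). The 4 platelet markers summed to 0.612 to 1.46 CPM in TKO, 6.53 to 8.95 in the CARM1 knockout and 0.729 to 211 in the NFIB mutant. Itgae, which pairs with beta 7, fell from 1.91 to 2.97 CPM in TKO to 0.881 to 1.29 and 0.365 to 0.635 (-1.16, adjusted p = 0.0756, and -2.25, adjusted p = 0.00741).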
